A study of Bos taurus with 18 samples.

Results

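Chromatin regulators are the enzymes and complexes that move nucleosomes, write, erase or read marks on histone tails, or oxidize methylated DNA. Their transcripts are long and rich in exons, and a back-splice, which joins the end of an exon to the start of an earlier one, turns part of such a transcript into a circular RNA (circRNA). N6-methyladenosine (m6A) is an internal RNA mark that is placed by a methyltransferase complex and can also lie on circRNAs. The circRNAs described here are those whose host gene symbol begins with ARID, SMARC, CHD, KDM, KMT, SETD, NSD, BRD, BRWD, HDAC, EZH, TET, BAZ, ASXL, PHF, KAT, INO80, KANSL, CREBBP, EP300 or EP400, without ARID1A, CDH genes and KATN genes. This rule found 104 of 3914 circRNAs, from 47 of 2220 host genes.

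The cells were MAC-T, a bovine line of immortalized epithelium from the mammary gland, seeded at 200000 cells per well and grown for 12 h. The control group stayed without bacteria. Wells of the other groups then received heat-inactivated *S. aureus* or heat-inactivated *E. coli* for 24 h at a multiplicity of infection of 10. Each group had 3 wells, and each well gave an input library, in which reads across the back-splice junction were counted, and a library immunoprecipitated (IP) with an m6A antibody, in which peaks over the input were called. All wells are of 1 cell line, so p-values measure only the spread between wells, and the tables hold circRNAs only, so epithelial markers were not checked here.

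The libraries differed in the number of junction reads and peaks they gave. All circRNAs together had 1529 to 2057 junction reads per control well, 361 to 402 per *S. aureus* well and 909 to 962 per *E. coli* well, and the IP libraries gave 1138 to 1358, 27 to 29 and 645 to 857 peaks. Fewer cells and less circRNA per cell cannot be told apart in these bulk samples, and what led to the difference between libraries was not tested. Values below are therefore given as shares of a library as well as numbers.

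The 47 host genes covered most kinds of chromatin regulator. They were grouped by the prefix of their symbol, so a gene can have another role than its group names. Nucleosome remodellers and their partners (ARID, SMARC, CHD and BAZ genes, of which some ARID proteins act in other complexes) gave 27 circRNAs from 14 genes, and histone methyltransferases (KMT, SETD, NSD and EZH2) gave 23 from 10 genes. BRD, BRWD and PHF genes, grouped as readers of histone marks although some act in other complexes, gave 28 circRNAs from 9 genes. Histone demethylases (KDM genes) gave 11 from 6 genes, acetyltransferases and subunits of their complexes (CREBBP, KAT and KANSL genes) gave 10 from 5 genes, and the deacetylase HDAC4 and the DNA demethylation enzyme TET3 gave 2 each. SETD3, which methylates actin and is kept by its name only, gave 1.

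Of the 104 circRNAs, 83 were exonic (79.8%, against 68.0% of all circRNAs), 12 overlapped the sense strand of the gene, 5 were antisense and 4 were intronic. Their median predicted length was 762.5 bases, against 568 bases for all circRNAs. Several circles of 1 gene often used the same splice site, since 43 circRNAs shared a start or an end with another circRNA of the same host gene (41.3%, against 25.4% of all). Only circRNAs of genes with more than 1 can share, and these were 85 of the 104, against 2351 of all 3914. BRWD1, a bromodomain reader, gave the most circRNAs, 7, followed by PHF20, a reader in a histone acetyltransferase complex, with 6 and the remodeller CHD1 with 5. BAZ1A, BRD1, KDM1A and SETD2 gave 4 each. Of the BRWD1 circles, 3 shared the coordinate chr1:139301216 (bosTau9, as all positions below). They are different circles with 1 or 2 reads, each in 1 well only, which was another *E. coli* well for each. The number of such sets over all circRNAs is not given here.

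Most of these circRNAs were rare. Of the 104, 47 had 1 junction read in all 9 wells together, 87 were read in 1 well only (83.7%, against 85.9% of all) and 5 were read in at least 3 wells. In the control wells 53 were read and in no other group (51.0%, against 51.1% of all), in *S. aureus* 13 (12.5%, against 12.3%) and in *E. coli* 28 (26.9%, against 26.7%), and 3 were read in all groups. Among the 21 with at least 4 reads, 10 had all their reads in 1 well (47.6%, against 47.4% of all). Presence in 1 well or 1 group was thus as frequent as for circRNAs in general, and a single well says little about a group.

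**Figure D1:**
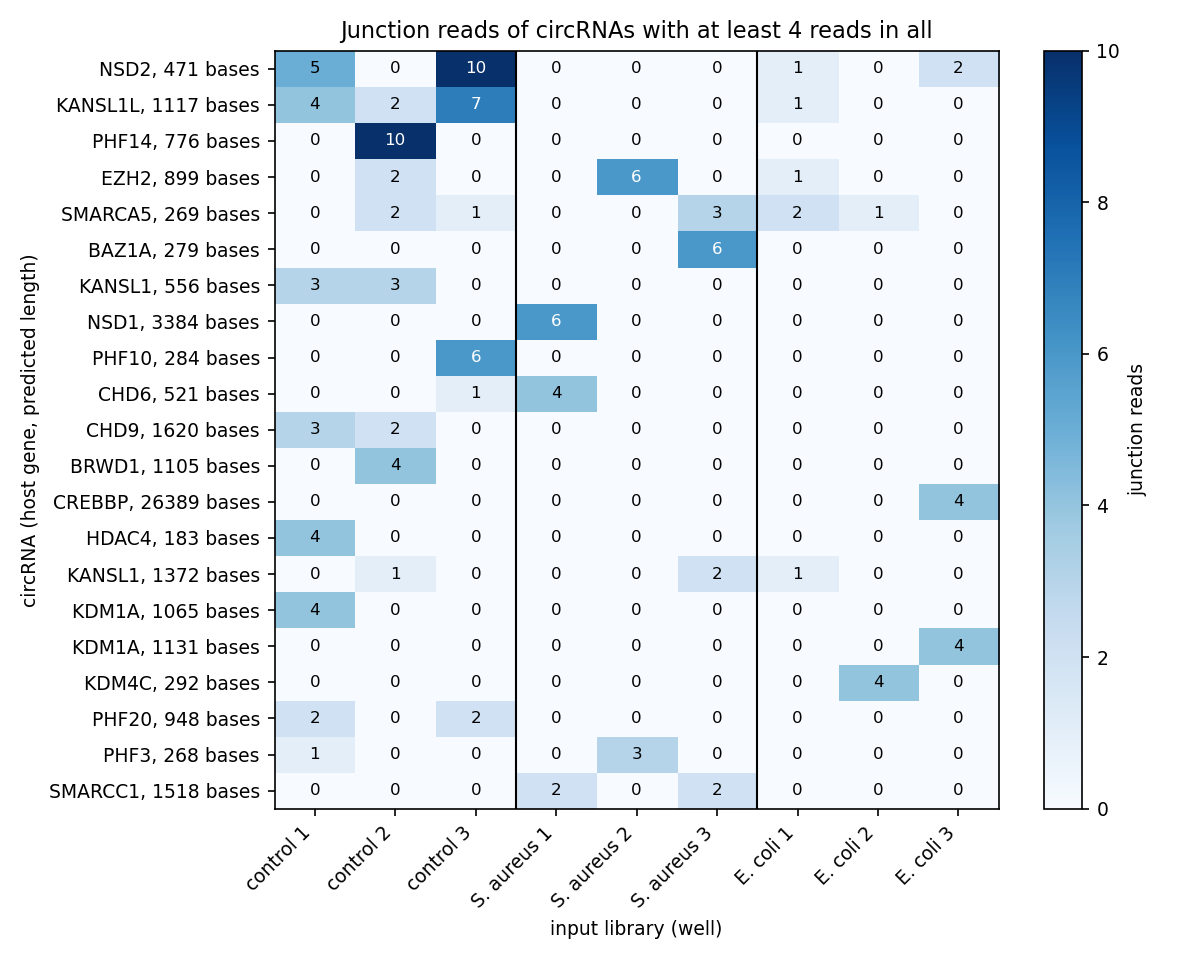
Junction reads in each input library (columns) of the 21 circRNAs with at least 4 reads in all (rows, named by host gene and predicted length in bases), with darker cells for more reads. NSD2 and KANSL1L were read mainly in control wells, while PHF14, PHF10, NSD1 and BAZ1A had all their reads in 1 well.

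The first question was whether the circRNAs of chromatin regulators took another share of all junction reads after contact with bacteria. They had 48, 48 and 53 reads in the control wells, 19, 14 and 16 in the *S. aureus* wells and 17, 19 and 24 in the *E. coli* wells. As a share of all junction reads this was 3.14%, 2.80% and 2.58% in control, 4.95%, 3.88% and 3.98% in *S. aureus*, and 1.85%, 1.98% and 2.64% in *E. coli*. Every *S. aureus* well lay above every control well, and the *E. coli* wells overlapped with control.

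The mean share was 4.27% ± 0.59 (SD, n = 3) in the *S. aureus* group against 2.84% ± 0.283 (SD, n = 3) in control (exact two-sided permutation test, p = 0.1, the smallest that 3 against 3 wells can give). In the *E. coli* group it was 2.16% ± 0.425 (SD, n = 3), which did not differ from control beyond the spread between wells (exact permutation test, p = 0.2), and the *E. coli* and *S. aureus* wells did not overlap (exact permutation test, p = 0.1). The *S. aureus* share rested on few molecules. In each *S. aureus* well 1 circRNA had 6 reads: one of NSD1, a histone H3 methyltransferase, in well 1, one of EZH2, the catalytic subunit of Polycomb repressive complex 2, in well 2, and one of BAZ1A, a subunit of ISWI remodelling complexes, in well 3. Without the most read of these circRNAs in each library, an alternative chosen after seeing the data, the means were 2.74% in *S. aureus* and 2.38% in control and the wells overlapped (exact permutation test, p = 0.5). Counted as detected circRNAs in place of reads, also chosen after seeing the data, the share was 3.18% in *S. aureus* and 2.78% in control (exact permutation test, p = 0.6).

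**Figure D2:**
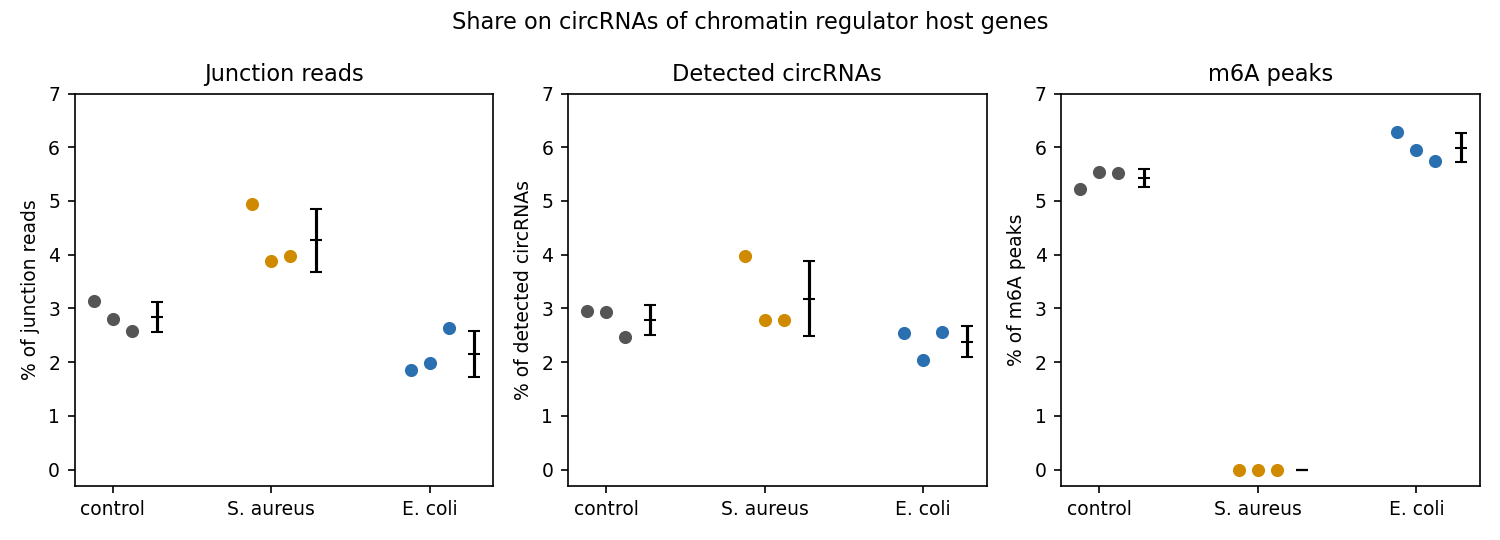
Share of each library (percent, y axis) on circRNAs of chromatin regulator host genes, for junction reads, detected circRNAs and m6A peaks, with 1 point per well and the mean ± SD (n = 3) beside the points. The *S. aureus* wells lie above control in reads (3.88% to 4.95%), overlap with it in detected circRNAs, and are at 0 in peaks.

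Among the functional groups, remodellers had 12, 8 and 11 reads in control, 9, 2 and 11 in *S. aureus* and 4, 2 and 0 in *E. coli*. Their mean share of junction reads was 0.595% ± 0.167 (SD, n = 3) in control and 0.214% ± 0.218 (SD, n = 3) in *E. coli*, with no overlap between wells (exact permutation test, p = 0.1). In *S. aureus* it was 1.88% ± 1.16 (SD, n = 3) and overlapped with control. Histone demethylases had 5, 2 and 1 reads in control and 0, 8 and 7 in *E. coli*, so that the groups overlapped. The wells of each treated group overlapped with control in the other functional groups too. On the list of 145 other chromatin regulator genes, 32 were hosts of 80 circRNAs, with 24, 28 and 53 reads in control, 3, 14 and 2 with *S. aureus* and 21, 36 and 14 with *E. coli*, and both treated groups overlapped with control in the share of reads. Of these 80, 1 passed the filter of the count test described next. No p-value over the functional groups was adjusted, since 3 against 3 wells cannot pass 0.05.

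Only 3 of the 104 circRNAs passed the filter of the count test (at least 2 reads in at least 3 of 9 libraries), among 79 circRNAs tested. KANSL1L, a paralog of a subunit of the NSL histone acetyltransferase complex, gave a circle of 1117 bases (chr2:97948826-97949942, minus strand). It had 4, 2 and 7 reads in control, 0 in every *S. aureus* well, and 1, 0 and 0 in *E. coli*. Only its control wells reach 2 reads, so it passed the filter through the group where it is high, and its direction against the treated groups was fixed by that choice. NSD2, a histone H3 lysine methyltransferase, gave a circle of 471 bases (chr6:116661389-116667023, minus strand) with 5, 0 and 10 reads in control, 0 in every *S. aureus* well and 1, 0 and 2 in *E. coli*, so that the groups overlapped. It passed the filter through control wells 1 and 3 and *E. coli* well 3, and thus through no *S. aureus* well. That choice likewise favoured a direction lower in *S. aureus*. SMARCA5, the ATPase of ISWI remodelling complexes, gave a circle of 269 bases (chr17:14349782-14350241, minus strand) with 0, 2 and 1 reads in control, 0, 0 and 3 in *S. aureus* and 2, 1 and 0 in *E. coli*.

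None of the 3 was called by edgeR's quasi-likelihood test at a Benjamini-Hochberg adjusted p under 0.05 in any comparison, and 0.0% of all circRNAs tested were, with DESeq2 too. At an unadjusted p under 0.05, edgeR had 13 of 79 circRNAs between *S. aureus* and control, 7 between *E. coli* and control and 12 between *E. coli* and *S. aureus*. For KANSL1L the log2 fold change between *S. aureus* and control was -4.77 ± 2.40 (SE; edgeR, adjusted p = 0.247), and for NSD2 it was -4.93 ± 2.10 (SE; edgeR, adjusted p = 0.210). Both passed the thresholds used in the study, an unadjusted p of at most 0.05 and a 2-fold change, as did 16.5% of all circRNAs tested in this direction. Both had passed the filter through wells outside the *S. aureus* group, which favours a lower *S. aureus* value. Their passes, and the fits without single wells below, are thus no support for a fall. Without control well 1 or control well 3 neither was tested, since both then missed the filter. Without *S. aureus* well 1 or *S. aureus* well 3 neither passed, while the log2 fold changes stayed between -4.98 and -4.81. KANSL1L also did not pass without *S. aureus* well 2 or *E. coli* well 1, at -4.90 and -4.80, and was not tested without control well 2, and NSD2 was not tested without *E. coli* well 3.

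The scaling bears on this. Over all 79 circRNAs the median log2 fold change between *S. aureus* and control was -1.88 with TMM factors and -0.74 with total junction reads alone. Without TMM neither KANSL1L nor NSD2 passed (both edgeR adjusted p = 0.464), and 2.53% of all circRNAs did. The log2 fold changes were then -4.37 ± 2.86 (SE) for KANSL1L and -4.55 ± 2.81 (SE) for NSD2. Both had 0 reads in *S. aureus* and were chosen through other wells, so a large negative value was fixed under either scaling. It is no support for a fall. SMARCA5 had a log2 fold change of 0.69 ± 1.74 (SE; edgeR, adjusted p = 0.856).

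Between *E. coli* and control the log2 fold change was -2.88 ± 1.87 for KANSL1L (SE; edgeR, adjusted p = 0.698), -1.79 ± 1.44 for NSD2 (SE; edgeR, adjusted p = 0.832) and 0.36 ± 1.73 for SMARCA5 (SE; edgeR, adjusted p = 0.979). None of these 3 passed the thresholds of the study there, against 7.59% of all in the lower and 1.27% in the higher direction (5.06% and 2.53% without TMM). Between *E. coli* and *S. aureus* none of them passed either, against 2.53% lower and 12.7% higher (3.8% and 3.8% without TMM).

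The fitted changes against wells with 0 reads depend on the prior count of the fit and are no bound. Over the pooled control wells, KANSL1L took 13 of 5300 junction reads, or 0.245%. The *S. aureus* wells had 1147 junction reads together, so that 0 reads allow a share of up to 0.262% (3 counts of the total), and a fall of KANSL1L was not detectable at this number of junction reads. For NSD2 the control share was 0.283% (15 reads, of which 10 were in 1 well), close to that limit. In *E. coli*, KANSL1L had 1 read of 2790, a ratio of 0.146 to control (95% exact counting interval 0.00344 to 0.973), and NSD2 had 3, a ratio of 0.380 (0.0705 to 1.34). These intervals cover counting error only, and not the spread between wells. KANSL1L was tested because its control reads were high, so its interval cannot show a fall.

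The other circRNAs read in at least 3 wells were those of EZH2 and KANSL1. An EZH2 circle of 899 bases had 2 reads in control well 2, 6 in *S. aureus* well 2 and 1 in *E. coli* well 1, and a KANSL1 circle of 1372 bases, from a scaffold subunit of the NSL complex, had 1 read in control well 2, 2 in *S. aureus* well 3 and 1 in *E. coli* well 1. Each therefore had reads in 1 well of each group. The SMARCC1 circle of 1518 bases (chr22:52012899-52054329, plus strand), from a core subunit of the SWI/SNF complexes, had 2 reads each in *S. aureus* wells 1 and 3 and 0 in the 7 other wells. SETD2, which trimethylates lysine 36 of histone H3, gave 3 sense circles and 1 antisense circle. The sense circles had 1 read each, in control well 2, *S. aureus* well 3 and *E. coli* well 2, and the antisense circle had 2 reads in *E. coli* well 1.

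The second question was whether the m6A marks on these circRNAs differed. A peak was called on 47 of the 104 in at least 1 IP library (45.2%, against 27.7% of all circRNAs). The circles with a peak were longer, with a median of 983 bases against 611 for those without, and the same held for all circRNAs (894 against 492). A peak was found on 46 in control (44.2%, against 26.4% of all circRNAs), on 35 with *E. coli* (33.7%, against 18.6%) and on 0 with *S. aureus* (against 0.843%). The 7 circles of BRWD1 had no peak in any library, although they had 14 reads together.

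Chromatin regulators had 71, 63 and 68 peaks in the control libraries and 41, 51 and 37 with *E. coli*, and each *S. aureus* library had 0. The *S. aureus* libraries held 84 peaks in all, so that 0 allows a share of up to 3.57%, below the control share of 5.43% ± 0.174 (SD, n = 3). Those 84 peaks lay at 37 places after merging between wells. Of 37 places, 0 allows up to 8.11%, which includes the 5.25% (84 of 1601) of merged control peaks. At the number of places, a lower share in *S. aureus* was not detectable. The 80 circRNAs of the other chromatin regulator genes too had 0 peaks in the *S. aureus* libraries, against 22 to 26 in control and 15 to 21 in *E. coli*. The study's own comparison of groups lists a peak on an RCOR1 circle, among these 80, as higher in *S. aureus*. In the peaks called per library and used here, no *S. aureus* library had it.

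In *E. coli* the number of peaks was lower than in control in every well (mean 43 ± 7.21 against 67.3 ± 4.04, SD, n = 3; exact permutation test, p = 0.1). As a share of all peaks it was 6.28%, 5.95% and 5.74% in *E. coli* and 5.23%, 5.54% and 5.52% in control. The *E. coli* wells lay above the control wells (mean 5.99% ± 0.273 against 5.43% ± 0.174, SD, n = 3; exact permutation test, p = 0.1). Counted as circRNAs with a peak in place of peaks, the shares overlapped (4.98% against 4.61%, exact permutation test, p = 0.3). The lower number of peaks turned with the authors' false discovery rate: at a rate of at most 20% the control libraries kept 31, 1 and 11 peaks and the *E. coli* libraries 40, 48 and 34 (exact permutation test, p = 0.1).

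Peaks were merged within a group where they shared at least 1 base on the same strand. The control group had 84 merged peaks on these circRNAs, of which 54 were called in all 3 libraries (64.3%, against 57.2% of all merged control peaks). An *E. coli* peak lay at 58 of the 84 (69.0%, against 58.4% of all), and an *S. aureus* peak at 0 (against 1.12% of all). Called in all 3 control libraries and in no *E. coli* library were 8 (9.52%, against 11.2% of all), and in no *S. aureus* library 54 (64.3%, against 56.1%). Of the 62 merged *E. coli* peaks, 4 had no control peak at the place (6.45%, against 7.96% of all), each in 1 library only, on circles of BAZ2B, NSD2, SETD5 and, on the antisense strand, SETD2.

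The 8 peaks called in all 3 control libraries and in no *E. coli* library included the KANSL1L region, 2 peaks of PHF3, a plant homeodomain protein that binds RNA polymerase II, and 1 peak each of BAZ2B, BRD7, CHD1, KDM3A and TET3. The mean control fold enrichments of these 8 ranged from 7.85 for BAZ2B to 27.2 for 1 PHF3 peak. The authors' false discovery rates for them were high, from 20.55% (KANSL1L, control library 1) to 100% (BAZ2B, control library 2). In control library 2, all peaks on chromatin regulators had rates from 11.76% to 100%. Whether a mark was lost at these 8 places with *E. coli* was not tested. At KANSL1L the control fold enrichments were 15.5, 16.7 and 9.74. This peak had exactly the ends of the 1117-base circle described above, but the table assigned it to a longer circle of 1579 bases with the same end (chr2:97911403-97949942), which had 1 read, in control well 2. The 1117-base circle, with 13 control reads, was thus listed without a peak although a control peak spanned all of it. Of the peaks on chromatin regulators, 26.2% in control lay within more than 1 circRNA (18.2% of all peaks), and 64.4% of those of both groups were assigned to the longest circle.

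The largest mean fold enrichments in all 3 control libraries were those of CHD6, a remodelling ATPase, and SETDB1, a histone H3 lysine 9 methyltransferase. A 148-base peak on CHD6 (chr13:70144245-70144392) had 96.8, 88.4 and 52.1 in control and 67.3, 46.9 and 19.0 in *E. coli*, with overlap. The SETDB1 peak (chr3:19812317-19812940) had 129, 44.4 and 59.1 in control, and 32.2 and 40.0 in the *E. coli* libraries 2 and 3, with no peak in library 1. The authors' false discovery rates in control were high here too, 14.73% to 26.57% for this CHD6 peak and 14.68% to 30.82% for SETDB1. In *E. coli* they were at most 3.75%. The other peaks among the 12 largest were a second CHD6 peak, 3 of SMARCC1 with means of 52.7 to 62.0, and 1 each of BRD1, BAZ1A, PHF14, SETD2, TET3 and CHD1 with means of 46.9 to 61.1. The SETD2 peak was called in 2 of 3 *E. coli* libraries.

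**Figure D3:**
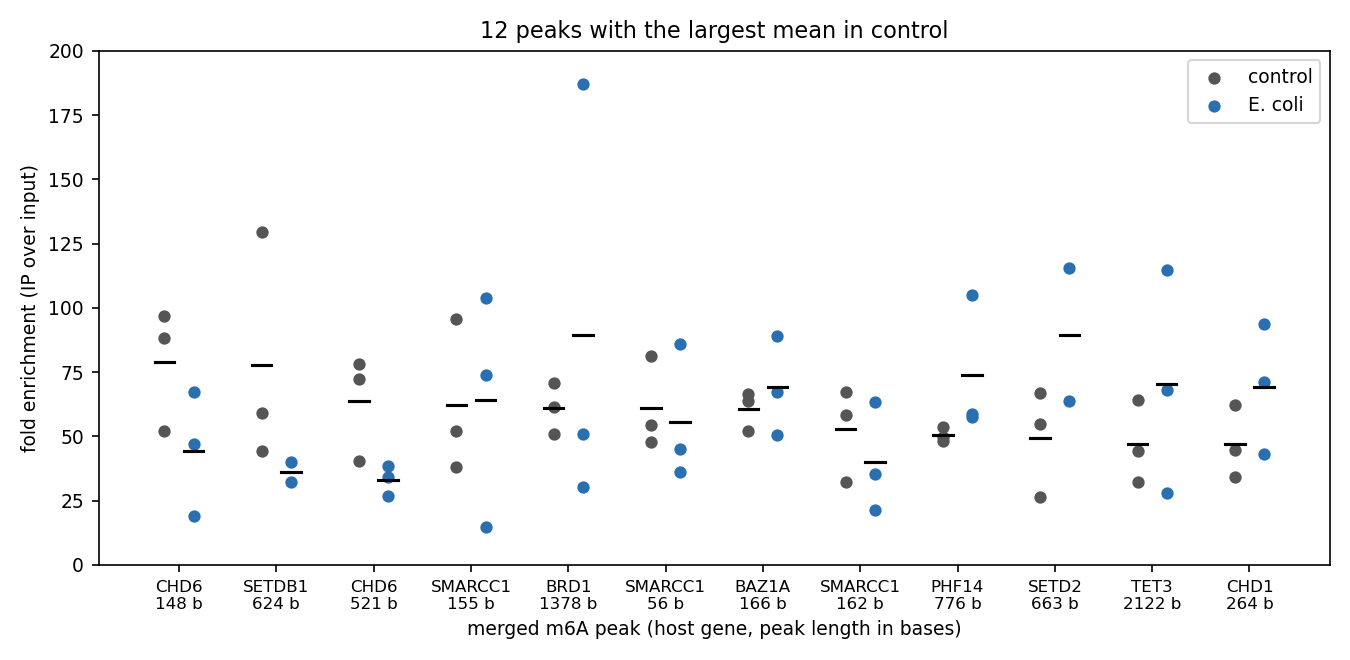
Fold enrichment of the IP over the input library (y axis) in each control and *E. coli* library for the 12 merged peaks with the largest mean among those called in all 3 control libraries (x axis, host gene and length of the peak in bases), with 1 point per library in which the peak was called and a line at the mean. SETDB1 and SETD2 have 2 *E. coli* points, and at most places the 2 groups overlap, with single high values such as 187 for BRD1 in *E. coli* library 2.

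The *E. coli* group ranked in part otherwise. Its largest mean among peaks in all 3 libraries was that of BRD1, a scaffold of histone acetyltransferase complexes, at 89.4, where the libraries had 30.3, 187 and 50.8, so that library 2 set the mean. Next came PHF14 at 73.7, TET3 at 70.2, CHD1 at 69.4, BAZ1A at 69.0 and CREBBP, a histone acetyltransferase and coactivator, at 67.6. For CREBBP too 1 library stood apart, with 34.4, 119 and 49.2.

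Over all peaks on these circRNAs the median fold enrichment was 28.5, 23.5 and 17.8 in the control libraries and 33.7, 34.3 and 39.0 in the *E. coli* libraries. The wells did not overlap (mean 23.3 ± 5.35 against 35.6 ± 2.94, SD, n = 3; exact permutation test, p = 0.1). For all peaks of these libraries the means were 22.1 and 33.6, a difference of 11.5 against 12.4 on chromatin regulators. The *E. coli* libraries also had fewer peaks, and the part of that in the median was not tested.

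The comparison of the same places leaves out peaks that only 1 group had. A peak was called in all 6 control and *E. coli* libraries at 24 places, and its mean was higher in *E. coli* at 18 of them (75.0%, against 70.4% of all such peaks), with a median ratio of 1.24 (1.14 for all). All *E. coli* values lay above all control values at 3 places (12.5%, against 9.47% of all). CHD2, a remodelling ATPase, had 20.2, 23.3 and 14.0 in control and 39.4, 39.1 and 35.5 in *E. coli* at a 100-base peak (chr21:14061582-14061681). PHF14, a reader of histone H3, had 53.6, 49.9 and 48.2 in control and 57.7, 58.6 and 105 in *E. coli*. BAZ1A had 31.0, 31.8 and 22.0 in control and 37.8, 34.3 and 42.9 in *E. coli* at a 597-base peak (chr21:45135188-45135784).

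At 1 place all *E. coli* values lay below control (4.17%, against 1.62% of all). This was the CHD6 circle of 521 bases (chr13:70162398-70162918, minus strand), where the peak spanned the whole circle, with 72.4, 78.2 and 40.4 in control and 26.8, 38.6 and 34.2 in *E. coli*. The same circle had 1 read in control well 3, 4 in *S. aureus* well 1 and 0 in the *E. coli* wells. The other CHD6 peak had a ratio of 0.561 between the group means, and the 4 other places with a lower mean in *E. coli*, on BAZ2B, NSD1 and SMARCC1, had ratios between 0.676 and 0.911.

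**Figure D4:**
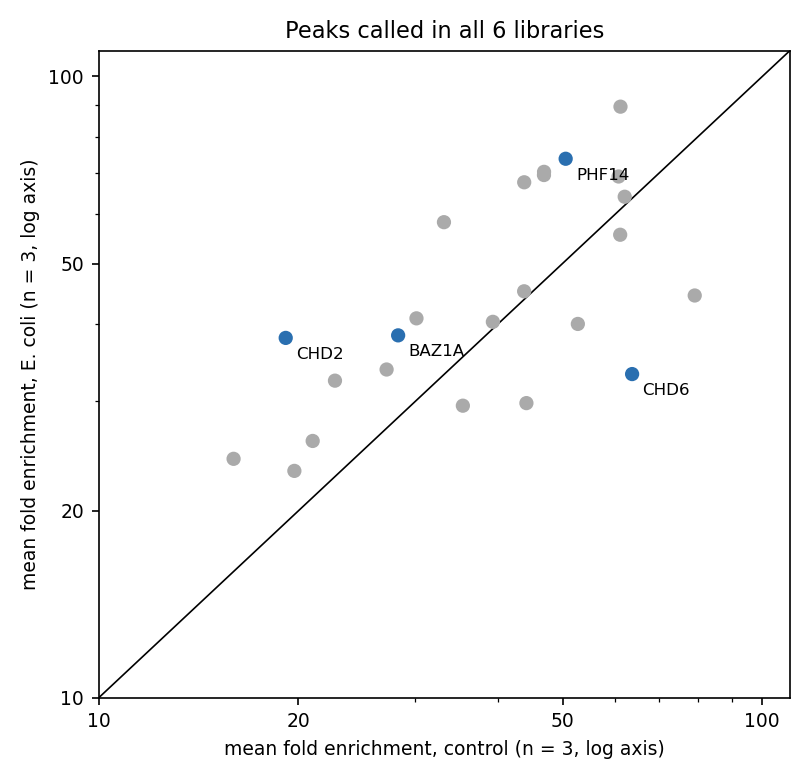
Mean fold enrichment of the 24 peaks called in all 6 libraries, in control (x axis, log scale, n = 3) and in *E. coli* (y axis, log scale, n = 3), with the line of equal values. Most points, 18 of 24, lie above the line, and the 4 blue points are the places where the libraries of the 2 groups do not overlap (CHD2, PHF14 and BAZ1A above, CHD6 below).

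The peaks lay on the circles in several ways. A peak reached a back-splice site, the start or the end of the circle, in 55.9% of the peaks on chromatin regulators in control and 55.8% in *E. coli* (61.8% and 65.8% of all). The peak spanned the whole circle in 24 of 202 control peaks (11.9%, against 16.3% of all) and in 22 of 129 *E. coli* peaks (17.1%, against 19.7%). In all 6 libraries this was so for BRD1, the CHD6 circle, KANSL1, PHF14 and TET3. The spans of these ranged from 521 bases for CHD6 to 2122 bases for TET3.

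Other circles had several separate peaks. At least 4 merged peaks in a group were found on BAZ1A, BAZ2B, BRD7, CHD2, NSD2, PHF3 and SMARCC1, and the number of such circles over all circRNAs is not given here. The SMARCC1 circle had 5 merged peaks in control and 5 in *E. coli*, 4 of them in all 6 libraries, although its only reads were in the *S. aureus* wells, where it had no peak. On PHF3 the control group had 5 merged peaks and the *E. coli* group 2, both in library 1 only. CHD2 had 4 merged peaks in each group on a circle of 740 bases with 1 read, in *S. aureus* well 1.

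Reads and peaks of 1 well seldom met on the same circle. Of the chromatin regulator circles with a peak, 17.5%, 26.3% and 17.5% had a junction read in the same control well, and 15.4%, 9.38% and 12.5% in the same *E. coli* well, and for all circRNAs the means were 23.3% and 13.0%. Both were found in at least 2 wells on 5 circles: those of CHD9, EZH2, KANSL1, PHF20 and NSD2, the last in 4 wells. The number over all circRNAs is not given here. Of the 41 circles without a control read, 17 had a control peak (41.5%, against 25.3% of all), and of the 13 read only in *S. aureus* 7 did (53.8%, against 26.7%). With or without a control read, the share with a control peak was 44.2%, against 26.4% of all, so the first value is near that share. A peak is called from fragments within the span of a circle, and whether those come from the circle or the linear transcript was not tested.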

How the data were processed

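The authors enriched circRNA with a kit and made an input and an m6A IP library from each of 9 wells. They used cutadapt 1.9.3 for trimming and STAR 2.5.1b for alignment to bosTau9, and counted junction reads per circRNA with DCC. They deposited these counts, the predicted length of each circRNA and, per IP library, peaks with a fold enrichment ratio and a percent false discovery rate. The peak caller and its use of strand are not given in the sources used here. The members and lists were chosen with earlier results of these data known.

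Counts were tested with edgeR 4.0.16 (quasi-likelihood, TMM, total junction reads as library size, 3 groups in 1 fit, at least 2 reads in at least 3 libraries), with DESeq2 1.42.0 as an alternative. The test was run on simulated counts. The first 3 designs of changed circRNAs that were tried gave more unadjusted calls among unchanged circRNAs than the limit set for the test. A simulation without any change then showed that TMM on counts this sparse shifts *S. aureus* against control downward, while fits without TMM stayed near 0, and adjusted calls were rare in it with and without TMM. With TMM, false adjusted calls also rose in the design with many increases. The planned fit was kept, the limit was dropped for fits with TMM, and values without TMM stand beside it. Well values were compared by exact permutation tests. Named were circRNAs passing the count filter, read in at least 3 wells or past the study's thresholds, the 12 largest peaks, circles with at least 4 merged peaks or with reads and peaks in at least 2 wells, the hosts with most circRNAs, and KANSL1L, SMARCC1 and SETD2. Others were chosen after their values were seen.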

Additional observations from a re-analysis of the deposited data

Results flagged for a closer look

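In 4 of several measures, every *S. aureus* well lay on one side of the control mean and every *E. coli* well on the other. These 4 were listed because they met this rule, so the pattern is no support for a difference. The difference between the treated groups' changes was not tested. The share of junction reads on chromatin regulators was higher by 1.43 percentage points in *S. aureus*. It differed by -0.684 in *E. coli*, where the wells overlapped with control (exact permutation test, p = 0.2). Without the most read chromatin regulator circRNA in each library, the means were 2.74% in *S. aureus* and 2.38% in control. Those wells overlapped (exact permutation test, p = 0.5). The reads per detected chromatin regulator circRNA differed from control by 0.174 in *S. aureus* and by -0.391 in *E. coli*. The wells of both treated groups overlapped with control there (exact permutation test, p = 0.2 each). Over all circRNAs the mean was 2.03 in control, 1.66 in *S. aureus* and 1.84 in *E. coli*. The share of peaks differed by -5.43 percentage points in *S. aureus* and by 0.559 in *E. coli*. The share of circRNAs with a peak differed by -4.61 and 0.371, and the *E. coli* wells overlapped with control (exact permutation test, p = 0.3). For *S. aureus* both peak measures rested on 0 of 37 merged peaks, where a lower share was not detectable.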

How the results depend on the processing

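No circRNA of a chromatin regulator passed an adjusted p under 0.05 under the alternatives in which one was tested. With only the *E. coli* and *S. aureus* groups in the fit none was tested, and 1 of 18 circRNAs was called. The count at the study's thresholds between *S. aureus* and control, 2 in the planned fit, fell to 0 with DESeq2, 0 with total junction reads without TMM, 1 with only the 2 groups compared (KANSL1L, 1 tested) and 1 with the replicate block (NSD2), and ranged from 0 to 2 with single wells left out, partly since fewer circRNAs then passed the filter. It was 0 without control well 1, control well 3, *S. aureus* well 1 or *S. aureus* well 3. Same-numbered wells did not deviate together (correlations from -0.107 to 0.128). Counts this sparse could hide a pairing, so whether the numbers pair the wells was not settled. The log2 fold change of SMARCA5, never called, reversed between *S. aureus* and control to -0.032 with clean input reads as library size, and between *E. coli* and *S. aureus* to 0.238 with clean input reads, 0.026 without a filter, 0.060 with the replicate block and 0.139 without *E. coli* well 3 (from -1.002 to 0.139 with single wells left out). Over all circRNAs, the number past the study's thresholds was 13 between *S. aureus* and control, against 26 with clean input reads, 22 without a filter, 2 with DESeq2 and 2 without TMM. Between *E. coli* and control it was 7, against 12 at 1 read in 3 libraries, 2 with the block and 1 with DESeq2. Between *E. coli* and *S. aureus* it was 12, against 6 without TMM, 5 with DESeq2, 4 with the block and 3 with only those 2 groups.

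The difference in peaks between *E. coli* and control, -24.3 per library, became 1 when only peaks past the control median of fold enrichment were kept, and 26.3 at a false discovery rate of at most 20%, where control libraries kept 31, 1 and 11 peaks and *E. coli* libraries 40, 48 and 34. The difference in the share of peaks, 0.559 percentage points, became -8.68 at that limit, where 1 of 3 remaining peaks of control library 2 lay on a chromatin regulator. The shares of reads and the median fold enrichment kept their direction under every alternative run. Overlap of at least 50% of the shorter peak gave the same numbers of shared peaks as 1 base. A median fold enrichment for *S. aureus* could not be computed and the motif search was not run. The number of junction reads limits most the *S. aureus* group, with 361 to 402 junction reads per well.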
